A study of Sus scrofa with 35 samples.

Results

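The enzymes of heme synthesis were followed in the whole blood of pigs. The list held 8 genes, ALAS1, ALAS2, ALAD, UROS, UROD, CPOX, PPOX and FECH, and a probe was taken where the gene name in the scanner files equalled one of them. This gave 14 probes for 6 genes, of 60305 distinct probes on the array and 39072 in the table of expressed probes that the authors deposited. UROS had 5 probes, PPOX 4, CPOX 2, and ALAS2, ALAD and UROD 1 each. For ALAS1 and FECH no probe was found by name, so both are not analysed here. All 14 probes were in the table of expressed probes and were well above background on all 35 arrays. Where a gene had several probes, the one with the highest mean stood for it, and the others are given beside it.

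Blood RNA came from 35 castrated male growing pigs, with 1 array per pig. The breeds were Creole (CR), Large White (LW) and the F1 cross between them, and the conditions were thermoneutral (TN, 24 °C) and heat stress (HS, 30 °C in the sample labels and 32 °C in the protocol text, for 5 d by the labels and 4 or 5 d by the methods of the study). Each of the 6 groups had 6 pigs, except CR TN with 5 pigs. According to the methods of the study, TN pigs were slaughtered before the temperature rose, so climate and time of slaughter cannot be told apart. The methods also give pigs as littermates, spread over pens that each held 1 breed and 1 climate, and model pen, slaughter day, father and mother. No source used here ties a pig to its pen, litter or day, so the fits below leave these out, and their p-values and counts of probes that passed treat related and penned pigs as independent.

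Heme is made partly in mitochondria and partly in the cytosol. ALAS joins glycine to succinyl-CoA, with ALAS1 in most cells and ALAS2 in developing red cells. ALAD then makes porphobilinogen, UROS closes the ring, UROD and CPOX trim its side chains, PPOX oxidises it to protoporphyrin, and FECH inserts iron. Mature red cells lack a nucleus and mitochondria, and RNA for this pathway in blood is known chiefly from reticulocytes, the youngest red cells, with some from white cells. In whole blood, fewer cells of a type and less RNA per cell cannot be told apart.

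All probes were 60 bases long. The sequences of 9 probes are shown because results for one gene differed between its probes or, for ALAS2 and ALAD, because the gene rests on 1 probe. UROD also rests on 1 probe. Its sequence and those of CPOX A_72_P241927 and PPOX A_72_P657702 are not reported here. Capitals mark a run of 17 bases that probes A_72_P554326 and A_72_P227067 of PPOX share.
ALAS2, probe O895: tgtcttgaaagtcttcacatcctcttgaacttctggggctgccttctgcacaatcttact
ALAD, probe O12960: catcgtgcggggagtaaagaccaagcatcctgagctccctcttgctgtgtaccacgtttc
UROS, probe A_72_P490689: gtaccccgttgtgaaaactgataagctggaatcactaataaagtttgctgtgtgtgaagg
UROS, probe A_72_P330863: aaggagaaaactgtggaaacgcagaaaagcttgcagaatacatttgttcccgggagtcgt
UROS, probe O10583: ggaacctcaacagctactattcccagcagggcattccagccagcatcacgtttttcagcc
CPOX, probe O6684: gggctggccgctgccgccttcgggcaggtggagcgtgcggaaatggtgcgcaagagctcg
PPOX, probe O14542: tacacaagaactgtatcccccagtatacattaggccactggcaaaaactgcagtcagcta
PPOX, probe A_72_P554326: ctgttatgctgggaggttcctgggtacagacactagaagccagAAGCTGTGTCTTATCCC
PPOX, probe A_72_P227067: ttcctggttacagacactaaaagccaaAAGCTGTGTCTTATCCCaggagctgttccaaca

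The 14 probes held 12 distinct sequences. A_72_P490689 of UROS had the same bases as A_72_P393553, and A_72_P330863 the same as A_72_P659478, so these spots measured the same thing again on each array. The first pair differed by 0.14 ± 0.07 (log2, SD over 35 arrays) and the second by 0.10 ± 0.09. These offsets between identical spots were small beside the spread between pigs. The pair of PPOX probes with the shared run could be aligned over 44 bases with 3 differing bases. The files place no probe on a genome and do not give the strand of the transcript. Of 1754 probes of the O series that overlapped a probe of the A_72 series on one strand only, by at least 30 bases, 97 (5.53%) ran on the opposite strand. The strand of the single probes of ALAS2, ALAD and UROD, all of the O series, could not be settled from the files. Read forward, the UROD probe had 0 reading frames without a stop codon, against 3 on the other strand, and the ALAS2 probe had 1 on each. The ALAD probe had 1 read forward and 3 on the other strand, and these counts alone did not settle its strand. They did not settle that of the UROD probe either, as no file places it in coding sequence. The open frame of the ALAS2 probe on the other strand looked like ALAS2 coding sequence. The open frame of the ALAD probe read forward looked like ALAD coding sequence. Both were judged from general knowledge of the proteins and not from a file. The ALAS2 and UROD probes may therefore not measure the sense transcript, and each ALAS2 or UROD value below is that of the probe named for the gene.

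Array brightness, taken as the 75th percentile of the processed intensity, differed between the F1 groups. The 6 F1 TN arrays had 112 to 185.9 (median 152), the dimmest of the 6 groups by median, and the 6 F1 HS arrays had 172.1 to 265.8 (median 249.7). The other 4 groups had medians of 199.3 to 235.9. All values below are log2 intensities after the quantile normalization of the authors, which sets all arrays to one distribution. The part of brightness in the differences between groups was not tested apart from the fits given beside the results.

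ALAS2, ALAD, UROS and UROD were lower in HS pigs than in TN pigs over the 3 breeds. In a model of breed and climate, 6 of the 14 probes passed the threshold on the adjusted p and all 6 were lower in HS. The 6 included A_72_P490689 and A_72_P393553 of UROS, which have the same sequence. By the probe standing for each gene, 4 of 6 genes passed. Of all 39072 probes, 34.8% passed, and 14.7% passed and were lower in HS. The study, which modelled pen, slaughter day, father and mother as well, reported far fewer differentially expressed probes in blood at the same threshold. The median difference of the 14 probes was -0.55 (log2), against 0.06 over all probes. All probes of the pathway are set out by breed in the plot of differences between HS and TN pigs.

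**Figure D1:**
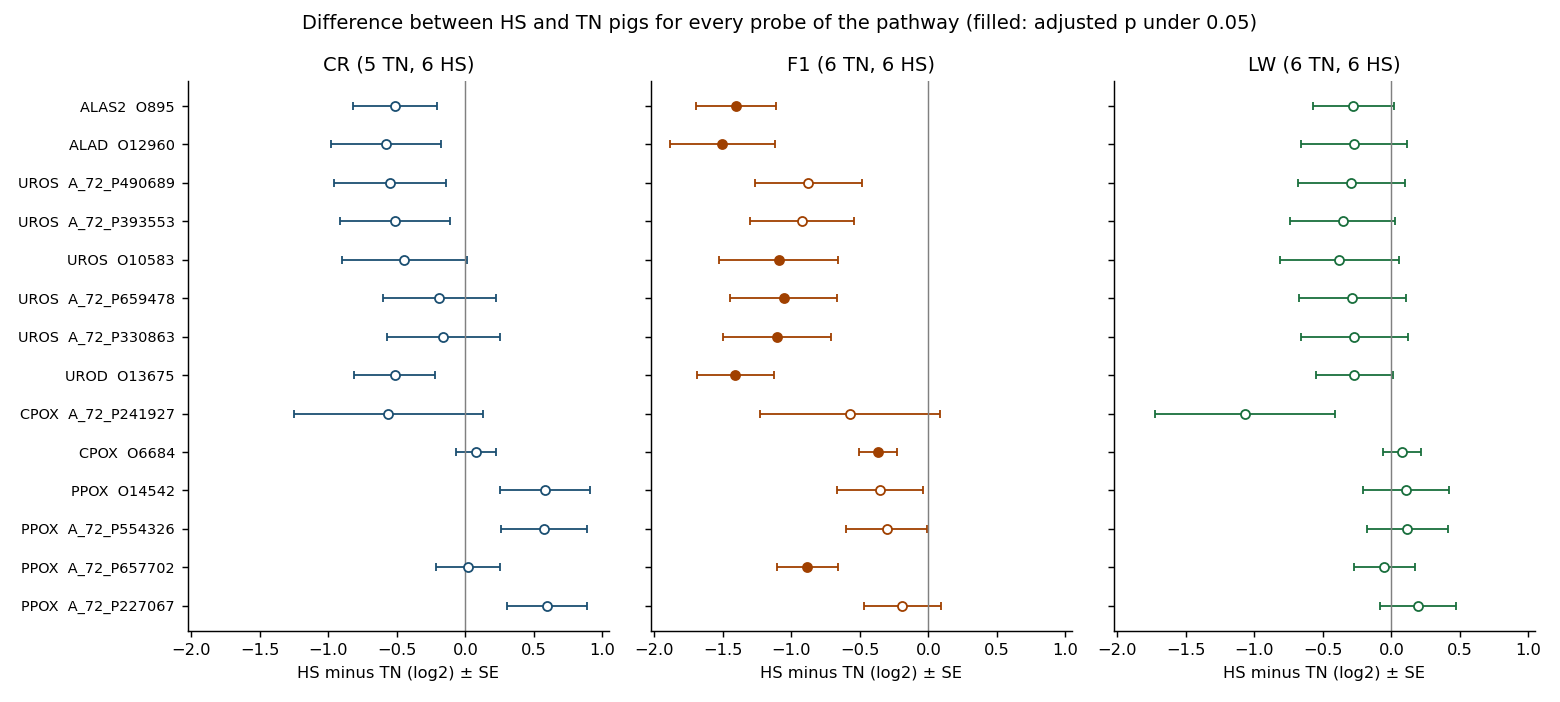
Difference between HS and TN pigs (log2, x axis) with its SE for each of the 14 probes (y axis, in pathway order), in CR, F1 and LW pigs, from limma. Filled points passed an adjusted p of 0.05. They lie only in the F1 panel, where ALAS2, ALAD and UROD sit at -1.40, -1.50 and -1.41.

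ALAS2, the first enzyme of the pathway in red cell precursors, was represented by 1 probe, O895, whose strand is in doubt. Its level over the 5 CR TN pigs was 9.10, 9.46, 9.85, 9.86 and 10.69, and over the 6 CR HS pigs it ran from 8.24 through a median of 9.49 to 9.90. In F1 pigs the lowest, median and highest values were 10.00, 10.33 and 10.83 in TN and 7.95, 9.01 and 9.76 in HS. In LW pigs they were 9.36, 9.97 and 10.32 in TN and 9.25, 9.56 and 10.21 in HS. The F1 groups did not overlap, while the climates overlapped in CR and LW pigs. ALAS2 was 1.67-fold lower in HS over all breeds (-0.74 ± 0.19, log2 ± SE, adjusted p = 0.00403). In F1 pigs it was 2.64-fold lower (-1.40 ± 0.29, adjusted p = 0.000698). The difference was -0.52 ± 0.31 in CR pigs (adjusted p = 0.589) and -0.28 ± 0.29 in LW pigs (adjusted p = 0.766), and neither passed the threshold. By mean, the groups were ordered F1 TN (10.39), LW TN (9.87), CR TN (9.79), LW HS (9.59), CR HS (9.28) and F1 HS (8.98). Among neighbours in this order, F1 TN and LW TN alone lay further apart, by 0.52, than the SD of either group.

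ALAD, which condenses aminolevulinate to porphobilinogen and is known as the target of lead, followed the same pattern. The F1 TN pigs had 12.28, 12.55 and 14.60 as lowest, median and highest value, and the F1 HS pigs 10.26, 11.61 and 11.98. Every F1 HS pig was thus below every F1 TN pig. In CR pigs ALAD was 10.65, 11.30, 12.31, 12.51 and 12.91 in TN, against 10.54, 11.28 and 12.28 (lowest, median, highest) in HS. In LW pigs it was 11.79, 12.75 and 13.63 in TN and 12.04, 12.41 and 13.00 in HS. The values of both climates overlapped in both breeds. ALAD was 1.73-fold lower in HS over all breeds (-0.79 ± 0.24, adjusted p = 0.0109) and 2.84-fold lower in F1 pigs (-1.50 ± 0.38, adjusted p = 0.00338). The differences of -0.58 ± 0.40 in CR pigs (adjusted p = 0.645) and -0.27 ± 0.38 in LW pigs (adjusted p = 0.826) did not pass.

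UROD, which removes carboxyl groups from the ring, had 8.58, 8.80 and 9.47 in F1 TN pigs and 6.59, 7.75 and 8.03 in F1 HS pigs. The F1 climates did not overlap here either. In CR pigs it had 7.47, 7.93, 8.41, 8.81 and 8.94 in TN against 6.91, 7.80 and 8.53 in HS, and in LW pigs 7.94, 8.17 and 8.88 in TN against 7.80, 7.98 and 8.70 in HS. UROD was 1.67-fold lower in HS over all breeds (-0.74 ± 0.18, adjusted p = 0.00332) and 2.66-fold lower in F1 pigs (-1.41 ± 0.28, adjusted p = 0.000472). The differences in CR and LW pigs, -0.52 ± 0.29 and -0.27 ± 0.28, did not pass (adjusted p = 0.576 and 0.762). ALAS2, ALAD and UROD were the 3 of 14 probes with all F1 HS values below all F1 TN values, which held for 8.08% of all probes.

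**Figure D2:**
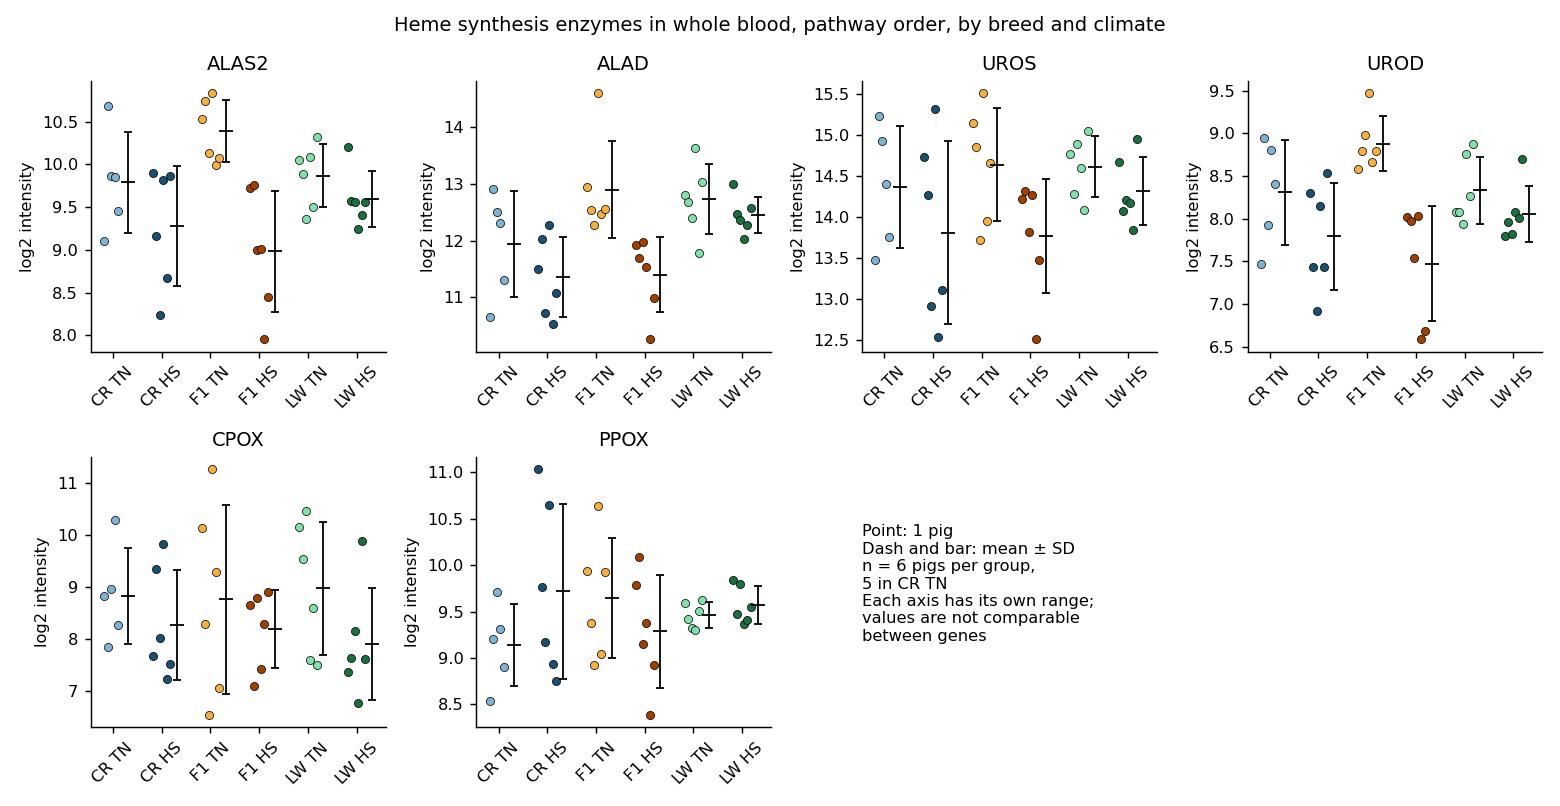
Log2 intensity (y axis) of the probe standing for each gene in every pig, by breed and climate (x axis), with the mean ± SD of each group. The F1 HS points of ALAS2, ALAD and UROD lie wholly below the F1 TN points, the CPOX points spread widely in all groups, and PPOX overlaps throughout.

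UROS, which closes the ring in its natural orientation, is given by its probe A_72_P490689. That probe had 13.72, 14.76 and 15.51 in F1 TN pigs and 12.50, 14.02 and 14.31 in F1 HS pigs. The CR HS pigs spread from 12.53 to 15.32, more widely than the 5 CR TN pigs (13.48 to 15.24), and LW pigs had 14.08 to 15.06 in TN and 13.84 to 14.95 in HS. Both climates overlapped in every breed. Over all breeds the probe was 1.49-fold lower in HS (-0.57 ± 0.23, adjusted p = 0.0464), close to the threshold. It did not pass when arrays were scaled to their 75th percentile (adjusted p = 0.0506), when dim probes were kept (0.0679) or when the UROS probes were averaged (0.0504). Of the other UROS probes, A_72_P393553 (-0.60, adjusted p = 0.0342) and O10583 (-0.65, adjusted p = 0.0454) passed as well. A_72_P330863 (-0.52, adjusted p = 0.0792) and A_72_P659478 (-0.52, adjusted p = 0.0782) did not. Within F1 pigs O10583, A_72_P330863 and A_72_P659478 passed (-1.09, -1.11 and -1.06) and the pair of A_72_P490689 and A_72_P393553 did not (-0.88 with an adjusted p of 0.0726 and -0.92 with 0.054). The SE of these F1 differences was 0.38 to 0.43. It measures the spread between pigs, and the 5 probes share the same arrays, so it does not test whether the probes differ.

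The last measured steps behaved differently, and their probes disagreed. CPOX, which oxidises coproporphyrinogen, had 2 probes with unlike values. A_72_P241927, which stands for the gene, spread from 6.53 to 11.28 among the F1 TN pigs alone (SD 1.82) and from 6.76 to 10.47 among the LW pigs of both climates. It was -0.74 ± 0.38 in HS over all breeds, and with this spread the difference did not pass (adjusted p = 0.121). The other probe, O6684, had group SDs of 0.17 to 0.29 and a difference of -0.08 ± 0.09 over all breeds (adjusted p = 0.514). In F1 pigs O6684 passed with a small difference (-0.37 ± 0.14, adjusted p = 0.0369), as it had 7.90 to 8.65 in TN and 7.52 to 8.11 in HS. Between the probes there was no detectable relation across pigs (Pearson r = 0.08, permutation p = 0.629), and the level given for CPOX depended on the probe.

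PPOX, the next to last enzyme and the one affected in variegate porphyria, had 3 probes that moved closely alike and 1 that followed them less closely. O14542, which stands for the gene, was 8.75 to 11.03 in CR HS pigs and 8.54 to 9.71 in CR TN pigs, and its difference over all breeds was 0.10 ± 0.19 (adjusted p = 0.712). In CR pigs O14542, A_72_P554326 and A_72_P227067 gave 0.58, 0.57 and 0.59, the highest differences of the pathway, with adjusted p-values of 0.574, 0.565 and 0.557. Pigs CR HS 1 and CR HS 4, with 11.03 and 10.65 on O14542, lay above all other CR pigs, while the remaining CR HS pigs had 8.75 to 9.76. The fourth probe, A_72_P657702, had 8.25 to 9.25 in F1 TN and 7.14 to 8.36 in F1 HS pigs and was 1.85-fold lower in HS there (-0.88 ± 0.22, adjusted p = 0.00293). The O14542 probe gave -0.35 ± 0.31 in the same pigs (adjusted p = 0.371). The 3 like probes correlated with each other across pigs at r = 0.96 to 0.97, and with A_72_P657702 at 0.66 to 0.73. Their r with A_72_P657702 was 0.78 to 0.82 after group means were removed. A_72_P657702 correlated with ALAS2 at r = 0.875 (rounded permutation p = 1e-05, the smallest that 100000 permutations can give), and O14542 with ALAS2 at 0.48 (permutation p = 0.00298).

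**Figure D3:**
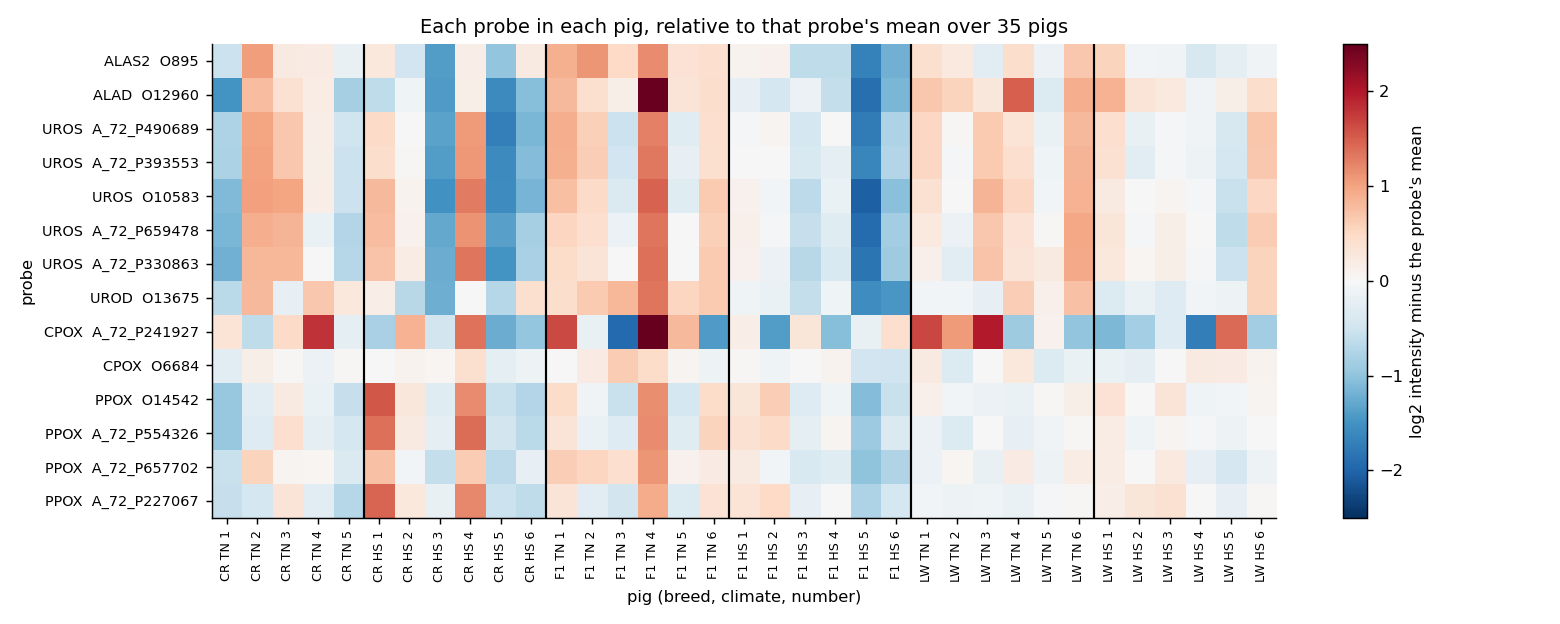
Log2 intensity of each of the 14 probes (y axis) in each pig (x axis) minus the mean of that probe over 35 pigs (log2, colour). F1 TN 4 is high and F1 HS 5 low on most probes, and A_72_P241927 of CPOX has a pattern of its own.

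Within F1 pigs all 14 probes were lower in HS, with a median of -0.90 against 0.13 over all probes, and 8 of 14 passed. These 8 included A_72_P330863 and A_72_P659478 of UROS, which have the same sequence. By the probe standing for each gene, 3 of 6 genes passed in F1 pigs. Of all probes, 38.7% passed in F1 pigs, and 17.9% passed and were lower. In CR pigs 0 of 14 passed (0% of all probes, 3466 of which had an unadjusted p under 0.05), with 9 of 14 lower and a median of -0.32. In LW pigs 0 of 14 passed (0% of all probes, 3404 with an unadjusted p under 0.05), with 10 of 14 lower and a median of -0.27. Of the 14 probes, 0 had an unadjusted p under 0.05 in CR or LW pigs. The F1 effect was not shown to differ from the others. In limma's F test of the interaction of breed and climate, 0 of 14 probes passed, and 0% of all probes did, while 4 of 14 had an unadjusted p under 0.05. The smallest adjusted p among them was 0.278, for A_72_P657702 of PPOX. The difference between the F1 and LW effects was -1.13 ± 0.41 for ALAS2 (adjusted p = 0.131), -1.23 ± 0.54 for ALAD (0.177) and -1.14 ± 0.40 for UROD (0.123). The fits over all breeds and within F1 pigs share the F1 animals, so they do not support each other.

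Without the F1 pigs, 0 of 14 probes passed over all breeds, and ALAS2 gave -0.39, ALAD -0.42 and UROD -0.39. When array brightness was added to the model, a choice made after seeing the data, 2 of 14 probes passed over all breeds, against 17.2% of all probes. These were ALAS2 (-0.45 ± 0.14, adjusted p = 0.0227) and UROD (-0.51 ± 0.15, adjusted p = 0.0233). In F1 pigs 0 of 14 then passed (0% of all probes), and ALAS2 had -0.59 ± 0.27 (adjusted p = 0.309). ALAS2 fell as brightness rose across the 35 pigs (r = -0.76, rho = -0.79, permutation p = 1e-05) and within groups (r = -0.68 after group means were removed). ALAD (r = -0.69), UROS (-0.66), UROD (-0.67) and A_72_P657702 of PPOX (-0.80) did so too. PPOX O14542 had r = -0.47 (permutation p = 0.00389). Of the CPOX probes, O6684 had r = -0.60 (permutation p = 0.00016) and A_72_P241927 had -0.03 (permutation p = 0.854). For ALAS2, r was -0.79 without the 2 pigs farthest from the median, and after adjustment over 9 such relations the p was 2.25e-05. The array slide held pigs of several groups, and with breed in the model ALAS2 was -0.25, -0.86, -0.99 and -0.98 in HS within slides 1 to 4. The last slide could not be fitted with breed.

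Markers of red cells moved with the members. Of 30 red cell genes listed, 17 were in the table. Of these, 16 had a negative difference over all breeds, 8 passed and were lower in HS (14.7% of all probes did) and 1 (SLC4A1, the anion exchanger, 0.27 ± 0.10 with an adjusted p of 0.0386) passed and was higher, with a median of -0.67 in all breeds, -1.06 in F1, -0.55 in CR and -0.27 in LW pigs. Their mean level ran from 10.23 to 12.13 in F1 TN, 9.11 to 10.66 in F1 HS, 9.98 to 11.27 in CR TN, 9.47 to 11.11 in CR HS, 10.43 to 11.27 in LW TN and 9.95 to 10.91 in LW HS pigs. The globin HBB had a mean of 17.44 with a difference of -0.13 (adjusted p = 0.243). The mean level of the 17 genes fell as array brightness rose across the 35 pigs (r = -0.64, permutation p = 5e-05) and within groups (r = -0.52). Fits with this mean level and fits with brightness as a covariate are therefore not separate. With this mean level as a covariate, 0 of 14 probes passed over all breeds, where 0.00512% of all probes did, and 0 of 14 in F1 pigs, where 4.88% did. ALAS2 then had -0.31 ± 0.17 over all breeds (adjusted p = 0.333) and -0.75 ± 0.28 in F1 pigs (adjusted p = 0.103), UROD -0.93 ± 0.30 in F1 pigs (adjusted p = 0.0634), and UROS 0.0048 ± 0.19 over all breeds (adjusted p = 0.993). Markers of other cells had medians over all breeds of -0.28 (neutrophil), 0.24 (monocyte), 0.15 (T cell), 0.24 (B cell), -0.04 (cytotoxic) and 0.19 (platelet). Of these, 3 of 7 monocyte, 2 of 7 T cell and 2 of 6 B cell genes passed and were higher, against 20.1% of all probes, and 1 of 7 cytotoxic genes passed and was lower. None of the 11 neutrophil or 5 platelet genes passed, though by sign all 11 were lower and all 5 higher. The part of these cells in the members' differences was not tested.

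The members varied together between pigs, except CPOX by its probe A_72_P241927. Over 35 pigs, 9 of 15 pairs of the 6 genes had an adjusted permutation p under the threshold, all with positive r. The share of pairs of other probes that would pass was not computed, so this count is not shown to be particular to the members. PSORS1C2, which is not a member, had r = 0.96 with ALAS2, above the r of any of the 15 pairs. The closest pair was ALAS2 and UROD (r = 0.87, rho = 0.78, permutation p = 1e-05, adjusted p = 2.5e-05), at 0.82 without the 2 pigs farthest from the median and 0.76 after group means were removed. ALAD and UROS had r = 0.82 (rho = 0.77), and ALAS2 and ALAD r = 0.80 (rho = 0.79), both with the same p-values. UROS and PPOX had r = 0.71 (rho = 0.71), which was 0.85 within groups. ALAS2 and PPOX had r = 0.48 (adjusted p = 0.00525) and ALAD and PPOX r = 0.51 (adjusted p = 0.00339), and the latter was 0.32 (permutation p = 0.0676) without 2 pigs. The 5 pairs with CPOX A_72_P241927 had r of 0.03 to 0.31, and adjusted p-values of 0.0923 to 0.847. The other CPOX probe, O6684, had r = 0.46 with ALAS2 (adjusted p = 0.00692 over 13 relations). UROD and PPOX had r = 0.35 (adjusted p = 0.0627). The ALAS2 and UROD probes, the closest pair, are those whose strand is in doubt. ALAS2, ALAD, UROS and UROD each fell as array brightness rose (r = -0.76, -0.69, -0.66 and -0.67). The part of brightness in these correlations was not tested.

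**Figure D4:**
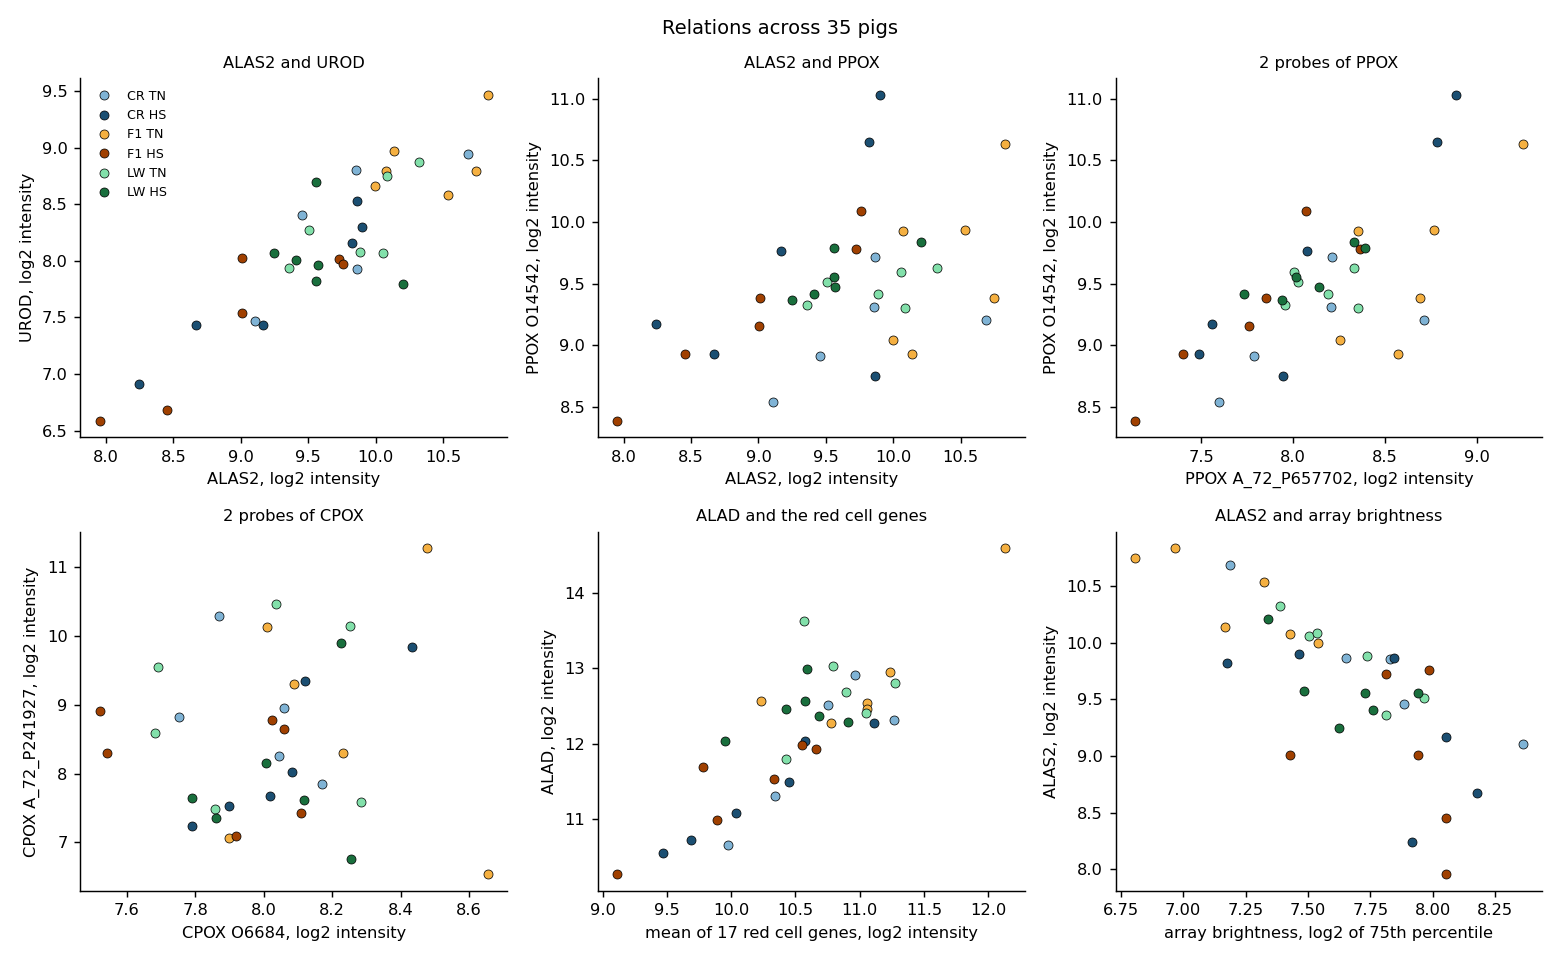
Each point is 1 of 35 pigs, coloured by breed and climate, and both axes of each panel are log2 intensities, or the log2 of array brightness in the last panel. ALAS2 rises with UROD (r = 0.87) and falls with array brightness (r = -0.76), ALAD rises with the mean of the 17 red cell genes (r = 0.83), and the 2 CPOX probes show no line (r = 0.08).

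Against the mean of the 17 red cell genes, which itself fell as array brightness rose (r = -0.64), ALAD had the highest r of the members (r = 0.83, rho = 0.72). UROS had r = 0.78, ALAS2 0.76, UROD 0.68, CPOX A_72_P241927 0.63, CPOX O6684 0.55 and PPOX O14542 0.48. Within groups ALAD had 0.78, ALAS2 0.60 and UROD 0.47. All 8 relations of this family passed after adjustment, with a largest permutation p of 0.00376. The share of all probes that would pass against this mean was not computed, so the count is not shown to be particular to the members. Among 16523 probes with a gene symbol, the 5 genes most like ALAS2 over the 35 pigs were PSORS1C2 (r = 0.96), IL17RE (0.95), CYP19A1 (0.95), TSC22D2 (0.95) and FGFR1 (0.95), with r of 0.91 to 0.92 within groups. None of the 5 was in the list of red cell genes.

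Between breeds, 0 of 14 probes passed in any contrast. For CR minus LW 1.08% of all probes passed, for F1 minus CR 0.184%, for F1 minus LW 0.0256% and for F1 minus the mean of both parent breeds 0.0717%. The lowest p belonged to ALAD, with -0.93 ± 0.29 in CR against LW pigs (adjusted p = 0.134). CR pigs had mean ALAD levels of 11.94 in TN and 11.36 in HS, and LW pigs 12.73 and 12.45. With arrays weighted by their quality, ALAD passed (-1.09 ± 0.24, adjusted p = 0.00476) as the only member probe of 14. In that fit 1524 of all 39072 probes passed, against 421 without weights. ALAS2 gave -0.18 ± 0.23 in that contrast (adjusted p = 0.902) and 0.05 ± 0.20 in F1 against the mean of the parents (adjusted p = 0.999).

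Other genes around heme were taken from fixed lists. The counts of these lists stand beside 34.8% of all probes that passed for HS minus TN over all breeds, 14.7% lower and 20.1% higher in HS. Of 8 genes that carry substrates or porphyrins across mitochondrial membranes, SLC25A39, a mitochondrial glutathione carrier, passed and was lower in HS (-0.52 ± 0.14, adjusted p = 0.00635), and the other 7 did not pass. Of 3 genes of iron-sulfur clusters and iron sensing, ACO1, cytosolic aconitase and iron regulatory protein, was higher (0.41 ± 0.09, adjusted p = 0.00201), and the other 2 did not pass. The protease LONP1, which degrades ALAS1 in mitochondria, was higher (0.32 ± 0.08, adjusted p = 0.00277). Among 8 genes of heme export and breakdown, BLVRB, the biliverdin reductase abundant in red cells, was lower (-0.80 ± 0.25, adjusted p = 0.0141). BLVRA, the other biliverdin reductase (0.34 ± 0.13, adjusted p = 0.0352), and HMOX2, the constitutive heme oxygenase (0.37 ± 0.11, adjusted p = 0.0112), were higher. Of 4 genes that sense or bind heme, 0 passed.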

How the data were processed

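Blood RNA of 35 pigs was hybridised to a custom one-colour porcine array. Per the file headers, Agilent Feature Extraction 10.10.1.1 read each array, and the deposited scanner files hold median and processed intensity per spot. The authors deposited log2 values, made from median intensity by quantile normalization and a filter whose rule is not given in the sources used here. Their scale was found by recomputing them from the scanner files (lowest Pearson r over probes 0.9999, median absolute difference 0.02), the column medians were 7.13 to 7.14, and direction is not an issue with 1 colour. These log2 values of 39072 probes were used, and 0 value columns lacked a sample.

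Breed and climate came from the sample labels. The authors fitted pen, slaughter day, father and mother as random effects. No source used here links these to pigs, which were treated as independent although litters and pens were shared, so p-values measure only the spread between these pigs and may be too small. Additive effects used breed and climate, and effects within breeds and interactions used 6 group means, in limma 3.58.1 (R 4.3.3, lmFit and eBayes, two-sided), with Benjamini-Hochberg adjustment over 39072 probes and a threshold of 0.05. In simulated data for HS minus TN with 200 of 39072 probes changed, 99% of changes of 1 and 100% of changes of 2 (log2) were recovered. The changed probes were picked at random and values were drawn independently for each probe and pig. The simulation thus held no shared litter, pen or array brightness, and its recovery is not that of the members. Correlations used two-sided permutation tests with 100000 resamples. The share of probes well above background was 55.2% to 68.0% per array. Precision is set by how many arrays each group has.

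The members, gene lists and tests were chosen with earlier results of these data known. All members were named, each by the probe with the highest mean. Of the other genes around heme, those that passed for HS minus TN were named. For ALAS2 the 5 most correlated gene symbols were named. Alternatives were other normalizations, background correction, no filter, slide as a block, array weights, probe means per gene, covariates, fewer breeds, single slides and each array left out. Pig gene symbols are those of the array files, and results of some listed genes are not reported here.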

Additional observations from a re-analysis of the deposited data

Results flagged for a closer look

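Of 36 sets of values (6 genes in 6 groups), 3 had a pig far from the rest of its group, as its gap to the nearest other pig was a large part of the whole range (Dixon's test at 95%). Chance gives such a pig in about 1 in 20 sets. ALAD in F1 TN 4 was 14.60, and the other F1 TN pigs had 12.28 to 12.95. Without this pig the F1 difference of ALAD was still past the threshold. ALAS2 in LW HS 1 was 10.21 (others 9.25 to 9.57) and UROD in LW HS 6 was 8.70 (others 7.80 to 8.07).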

How the results depend on the processing

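The count of 6 of 14 probes for HS minus TN was 3 with scaling to the 75th percentile, 2 with array brightness and 0 with the red cell mean as covariate, 0 without F1 pigs and 3 without LW pigs. With each array left out in turn it ran from 3 to 9, and it was 3 without F1 TN 1, F1 TN 2, F1 TN 4, F1 HS 5, F1 HS 6, CR TN 2, CR HS 3 or CR HS 5. The F1 count of 8 was 0 with either covariate and ran from 4 to 10 with arrays left out, with 4 without F1 TN 4, F1 HS 5 or F1 HS 6. ALAS2, ALAD and UROD passed over all breeds and in F1 pigs in all 35 fits that left out 1 array, and UROS over all breeds in 14. The CR minus LW count of 0 was 1 with array weights. With arrays left out, the counts of CR, LW, interaction and breed contrasts stayed at 0. With the red cell mean as covariate some signs turned. These were UROS (0.0048) and CPOX (0.070) over all breeds, CPOX (1.04), PPOX (0.34) and UROS (0.15) in F1 pigs, CPOX (0.13) in CR pigs, and ALAD (0.059) and UROS (0.015) in LW pigs. With array brightness, UROS (0.18) and PPOX (0.28) turned in F1 pigs, and without CR pigs PPOX was -0.12 over all breeds. The cause was not tested. Over all probes, the HS minus TN count of 13601 was 6706 with brightness, 2 with the red cell mean and 0 without F1 pigs, and the F1 count of 15108 was 0 with brightness and 1906 with the red cell mean. With array weights 1111 probes passed in LW pigs against 0, 1524 for CR minus LW against 421 and 152 for F1 minus CR against 72, and the F1 minus LW count of 10 ran from 0 to 39 over the alternatives. The 15 correlations had 8 to 10 pairs past the threshold under 3 alternatives, against 9. No paired analysis was possible because no source used here gives the litter or pen of a pig, though by the methods litters were spread over TN and HS pens, and the numbers of pigs follow only the order of the sample records.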

Other observations

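For the other members, the gene symbols with the highest r over 35 pigs, looked up after the values were seen, were RNF123 (0.91), BCL2L1 (0.90) and TPM1 (0.89) for ALAD, SERINC2 (0.89), TMEM86B (0.87) and TSKU (0.87) for UROS, and CLPS (0.96), CNOT4 (0.96) and FAAH (0.96) for UROD. For CPOX A_72_P241927 they were ARHGAP11A (0.96), PPP1R15B (0.95) and HMGB1 (0.95), and for PPOX O14542 FBXW4 (0.83), RAB3IL1 (0.81) and ANKRD9 (0.76).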
